A study of Homo sapiens with 12 samples.

Results

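The 10 genes described here encode the receptor tyrosine kinase KIT and its ligand KITLG (stem cell factor), together with receptors and 1 further ligand through which blood-forming cells receive growth and differentiation signals. They were *KIT*, *FLT3* and *CSF1R* (receptor tyrosine kinases), *KITLG* and *CSF1* (ligands), *CSF2RA*, *CSF2RB*, *IL3RA* and *CSF3R* (class I cytokine receptor chains) and *IFNGR2* (a class II cytokine receptor chain). Each was taken from the deposited gene counts by its Ensembl identifier, which makes 10 of 58288 genes. *KIT* and *KITLG* were chosen by their measured response to TNF-α in these libraries, a strong decrease of *KIT* and a *KITLG* change of opposite direction in the 2 cell types. Their changes are therefore given as a description without a test. The other 8 genes were chosen for what they encode, but with earlier results of the same libraries known, so their adjusted p-values are not independent support for the choice.

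HL-60/S4 is an established human cell line from an acute promyelocytic leukemia. Total RNA was sequenced from 4 groups of 3 flasks: promyelocytes (undifferentiated cells) that received vehicle (water) or TNF-α, and granulocytes that received either of these. Granulocytes are the same cells after 4 days in 1 µM all-trans retinoic acid (ATRA), which stayed in the medium. Cells were exposed for 2 h to TNF-α, a cytokine of inflammation, at 16 ng/mL, and all groups were kept in medium supplemented with calcium. All flasks came from 1 seed lot of 1 cell line, so p-values measure the spread between flasks and not between lines or people. The 2 cell types were treated in separate experiments. Differences between cell types, in level or in response to TNF-α, therefore cannot be told apart from differences between experiments.

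Library totals ran from 22829189 to 31895061 read pairs on genes, and 3 counts, taken as the floor of detection, stood at 0.0941 to 0.131 CPM. CPM are the authors' raw counts scaled to a common library size (TMM). This floor covers counting error only. The promyelocyte markers *MPO*, *ELANE*, *PRTN3*, *AZU1* and *CTSG* summed to 7321 to 8147 CPM in promyelocytes with vehicle and 6065 to 6966 with TNF-α. In granulocytes their sums overlapped, at 2134 to 2346 with vehicle and 2145 to 2352 with TNF-α, with *ELANE* (neutrophil elastase) under 1. The 6 markers of ATRA granulocytes, among them *ITGAM* and *CD38*, summed to 138 to 147 in promyelocytes with vehicle and 250 to 268 with TNF-α, and to 4941 to 5217 and 5752 to 6117 in granulocytes. The sums of these 6 markers with and without TNF-α thus did not overlap in either cell type. In promyelocytes the oxidase genes *NCF1* (10.1 ± 0.561 and 23.6 ± 1.38 CPM; SD, n = 3) and *CYBB* (113 ± 4.43 and 216 ± 11.4) carried most of the difference. In granulocytes *ITGAM* (298 ± 8.87 and 252 ± 10.4) and *CD38* (1165 ± 47.1 and 1031 ± 28.0) were lower with TNF-α. *ITGAX* (131 ± 1.04 and 211 ± 1.35), *NCF1* (1218 ± 76.3 and 1951 ± 139) and *TGM2* (172 ± 10.1 and 370 ± 22.7) were higher there. *CYBB* overlapped (2108 ± 36.7 and 2127 ± 20.9). The part of these markers in the results below was not tested. The monocyte or macrophage markers *CD14*, *CD163*, *MRC1*, *C1QA* and *C1QB* had at most 12 counts each in any library. Erythroid markers summed to at most 0.298 and megakaryocyte markers to at most 2.04, and lymphoid markers to between 12.4 and 23.1.

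KIT is a tyrosine kinase on the surface of stem and progenitor cells and mast cells that is switched on when KITLG brings its chains together, and most of the myeloid lineage loses it on maturing. FLT3 and CSF1R are kinases of the same family. They serve early progenitors and the monocyte and macrophage lineage, and CSF1 is a ligand of CSF1R. The receptors for GM-CSF and IL-3 each pair a private ligand-binding chain (CSF2RA or IL3RA) with a shared signalling chain (CSF2RB), while CSF3R is the receptor for G-CSF, the main growth factor of neutrophils. IFNGR2 is the signalling chain of the interferon-gamma receptor. The class I and class II receptors signal through Janus kinases.

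The DNA just before the starts of these genes is shown for the 3 on which the account turns most. RefSeq promoter windows (GRCh38.p14, 250 bases before to 50 after a start) were found for 8 of the 10 genes, in 10 windows, and none for *CSF1* and *CSF2RB*. The 250 bases before each start were searched on both strands for the NF-kB consensus, since NF-kB is the best-known transcription factor downstream of TNF-α, for the letters GAGGAA, a core recognised by the myeloid factor PU.1, and for TATAAA, the letters of a TATA box. Capitals mark matches. For *KIT* the bases up to the annotated gene (chr4:54657707-54657917, plus strand) are shown, and for the other two genes, whose windows lie inside the first annotated exon, 30 bases around each match, at chr12:88580483-88580512 (minus strand) for *KITLG* and at chr21:33403217-33403246, chr21:33403304-33403333 and chr21:33403383-33403412 (plus strand) for *IFNGR2*.
KIT: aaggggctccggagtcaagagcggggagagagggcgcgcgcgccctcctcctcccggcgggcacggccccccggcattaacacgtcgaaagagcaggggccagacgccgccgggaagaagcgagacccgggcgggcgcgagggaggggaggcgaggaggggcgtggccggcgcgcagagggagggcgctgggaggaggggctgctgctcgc
KITLG: gggcgggaactgTATAAAagcgccggcggc
IFNGR2, farthest from the start: aggacgttccGGGAGGCTCCgcgctctggg
IFNGR2, middle: tcccggagcgGGAAAGTCCCgcgcgggggc
IFNGR2, nearest to the start: gccgaatcccctccaccGGGACGCCCCgct

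The *KIT* window held none of the 3 motifs in its 250 bases. *KITLG* held 1 TATAAA, 29 bases before the start, a motif found in 10.7% of 35116 RefSeq windows, *IL3RA* held 1 at the same distance and 1 of the 2 *CSF3R* windows held 1 farther away. *IFNGR2* held 3 matches to the NF-kB consensus, and *FLT3* was the only other one of the 8 genes with a match. Of all 35116 windows 9.96% held at least 1. The 250 bases of *IFNGR2* were 80.4% G and C, and the share over all windows was not matched for this. GAGGAA stood in 4 of the 10 windows, those of *FLT3*, *CSF2RA*, 1 of the 2 of *CSF3R* and 1 of the 2 of *CSF1R*, against 23.6% of all windows. None of these motifs overlapped another kind in the printed stretches. These are matches of letters only and no binding was measured.

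Levels are given as normalized counts (CPM) for each of the 3 libraries of a group in the order of their replicate numbers. Every log2 fold change is of TNF-α over vehicle in the same cell type. A gene was called changed at an adjusted p under 0.05 in edgeR's quasi-likelihood test, adjusted over all genes tested by Benjamini-Hochberg, and all 10 genes passed the filter on low counts in both cell types. Among all genes, 14.8% of 16250 were called in promyelocytes (8.15% higher and 6.65% lower) and 49.2% of 16944 in granulocytes (24.4% higher and 24.8% lower). Of the 8 genes other than *KIT* and *KITLG*, 3 rose, 1 fell and 4 did not pass the test in promyelocytes. In granulocytes 6 rose and 2 fell. Nothing is read from these counts, since the genes were chosen with the same contrasts known.

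**Figure D1:**
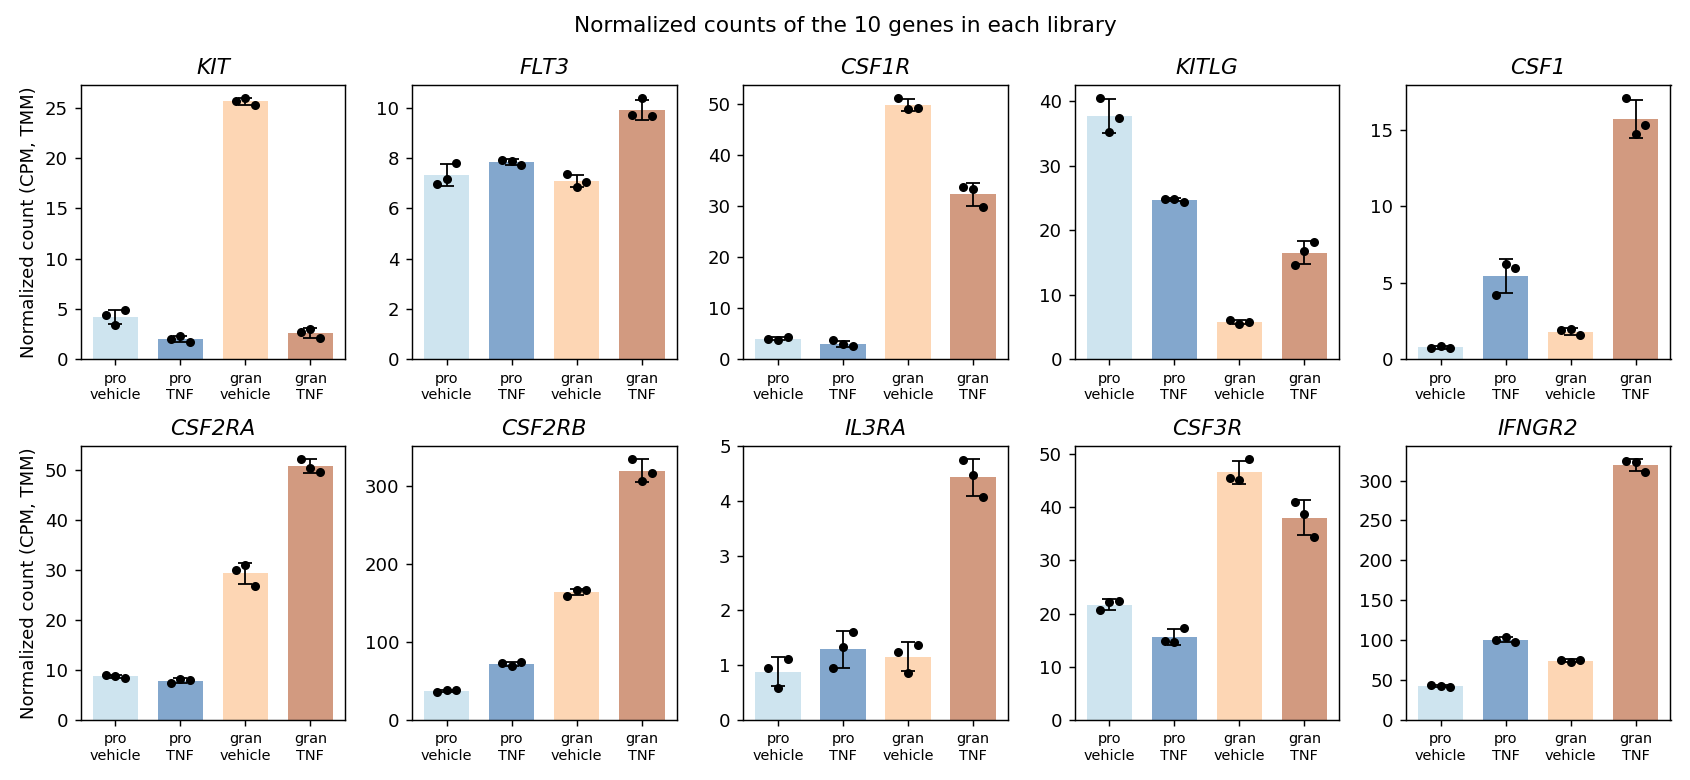
Normalized counts (CPM, TMM-scaled, linear axes from 0, one scale per panel) of the 10 genes in promyelocytes (pro) and granulocytes (gran) with vehicle or TNF. Bars are means, whiskers SD and points the 3 libraries. *KIT* stands at 25.3 to 25.9 CPM in vehicle-treated granulocytes and under 5 CPM in the other 3 groups, and *KITLG* is lower with TNF-α in promyelocytes and higher in granulocytes.

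*KIT* (ENSG00000157404.15, hg38 chromosome 4, from 54657918 to 54740715, plus strand) was the most depleted of the 10 transcripts after TNF-α in both cell types. Vehicle-treated promyelocytes held 4.35, 3.42 and 4.83 CPM of *KIT*, and TNF-α treated promyelocytes held 1.99, 2.29 and 1.67. Vehicle-treated granulocytes held 25.7, 25.9 and 25.3 CPM, and TNF-α treated granulocytes 2.71, 2.97 and 2.08. The groups did not overlap in either cell type, and the 3 vehicle-treated granulocyte libraries lay above the other 9 by a wide margin, while the TNF-α treated granulocytes ended near the level of the promyelocytes. Its log2 fold change in promyelocytes was -1.06 (standard error 0.194), a level 2.09-fold lower. It was -3.30 in granulocytes (standard error 0.109), 9.88-fold lower, and only 4 of the 16944 genes tested there had a lower value. Granulocyte and promyelocyte responses differed by -2.20 on the log2 scale (standard error 0.217).

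The lowest library of *KIT* had 46 counts and the highest 783, so counting error weighs more on the promyelocyte and TNF-α treated libraries than on vehicle-treated granulocytes. Leaving out any 1 library kept the log2 fold change between -1.19 and -0.94 in promyelocytes and between -3.43 and -3.17 in granulocytes. Since *KIT* was chosen by this decrease, its rank and these ranges are a description and not support. In these bulk samples fewer *KIT*-expressing cells and less *KIT* RNA per cell cannot be told apart. The summed level of markers of mast cells and basophils, cells that carry KIT, moved with *KIT* in promyelocytes. The 7 markers summed to 69.9 to 85.0 CPM with vehicle and 44.8 to 57.5 with TNF-α, nearly all of it *GATA2* (73.3 ± 8.94 and 46.1 ± 5.96 CPM; SD, n = 3), a transcription factor also used by progenitors. The granule protease genes *CPA3*, *TPSAB1* and *TPSB2* stayed under 1 CPM on average in every group, and *FCER1A* was at 0 in all promyelocyte libraries. In promyelocytes *TPSB2* went the other way, with 0 to 2 counts with vehicle and 3 to 12 with TNF-α, and *CPA3* and *TPSAB1* overlapped. *MS4A2*, the beta chain of the mast cell IgE receptor, was detected and lower with TNF-α, at 3.69 to 5.70 CPM with vehicle and 2.22 to 3.12 with TNF-α in promyelocytes, without overlap. In granulocytes it averaged 1.48 and 0.728 CPM, with overlap. *HDC*, the histamine-forming enzyme, averaged 0.998 and 1.09 CPM in promyelocytes. The part of such cells in the *KIT* result was not tested. In granulocytes, where *KIT* was highest, the same 7 markers summed to 2.02 to 3.02 CPM with vehicle and 1.25 to 1.72 with TNF-α.

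*KITLG* (ENSG00000049130.14, hg38 chromosome 12, from 88492793 to 88580851, minus strand), which encodes the ligand of KIT, went opposite ways in the 2 cell types. Promyelocytes held 40.5, 35.2 and 37.5 CPM of *KITLG* with vehicle and 24.9, 24.8 and 24.4 with TNF-α. Granulocytes held 6.04, 5.46 and 5.80 CPM with vehicle and 14.6, 16.7 and 18.1 with TNF-α. All TNF-α treated libraries were below all vehicle libraries in promyelocytes and above them in granulocytes. The spread was narrow with TNF-α in promyelocytes and wider with TNF-α in granulocytes. In promyelocytes the log2 fold change was -0.59 (standard error 0.0712; 1.5-fold lower) and 1.5 in granulocytes (standard error 0.104; 2.84-fold higher), and the difference of the responses was 2.13 (standard error 0.122). Of 15393 genes tested in both cell types, 1801 (11.7%) were called in both, and 184 of these were called in opposite directions. An unnamed gene on the opposite strand shares 80 exon bases with *KITLG* (1.33% of its exons) and had 15 counts in all 12 libraries together, and the counting used strand.

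Receptor and ligand were set against each other within each library, as CPM per kilobase of exon, which removes the effect of gene length. The ratio of *KIT* to *KITLG* lay between 0.105 and 0.140 in vehicle-treated promyelocytes and between 0.0741 and 0.1000 with TNF-α. In granulocytes it lay between 4.61 and 5.14 with vehicle and between 0.124 and 0.201 with TNF-α. The receptor transcript therefore exceeded that of its ligand in vehicle-treated granulocytes alone, and with TNF-α the ligand transcript exceeded that of the receptor 4.98- to 8.04-fold in granulocytes and 10.0- to 13.5-fold in promyelocytes.

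**Figure D2:**
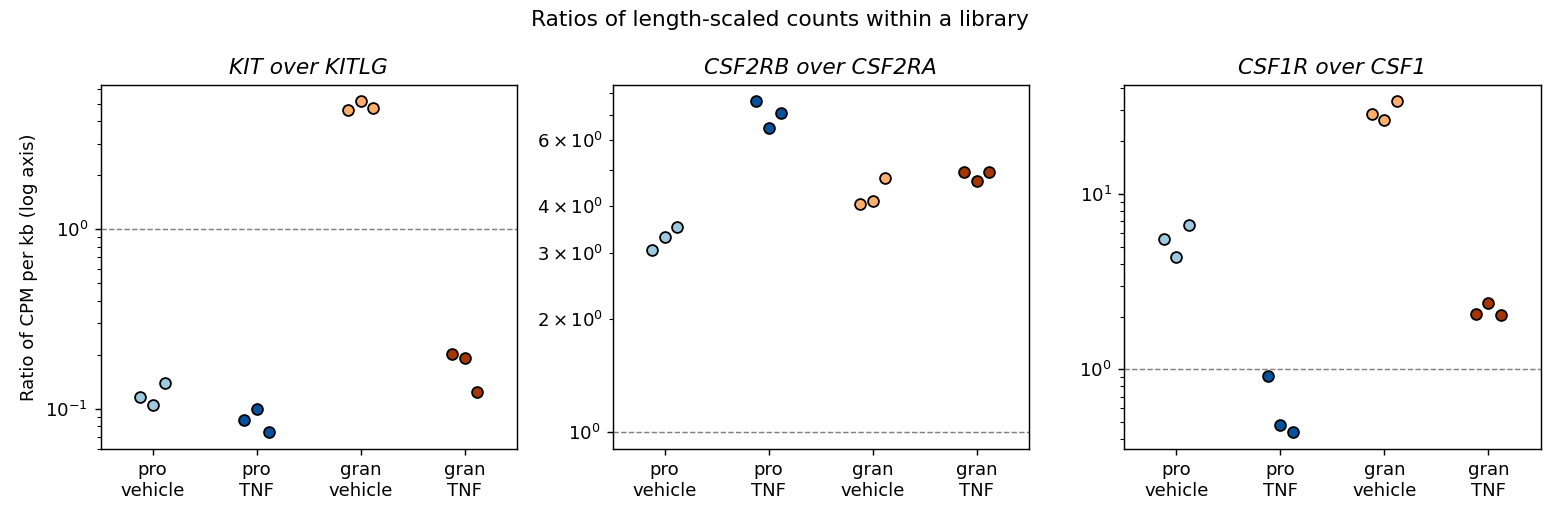
Ratios of length-scaled counts (CPM per kb) between pairs of genes within each library, on log axes, with 1 point per library and the dashed line at equal levels. The *KIT* to *KITLG* ratio is above 1 in the 3 vehicle-treated granulocyte libraries and at most 0.201 elsewhere, and the *CSF2RB* to *CSF2RA* ratio is above 1 in all 12.

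*FLT3* (ENSG00000122025.14, chromosome 13, from 28003274 to 28100592, minus strand) encodes a kinase related to KIT that serves early progenitors, and its level varied least among the 4 groups. Promyelocytes held 6.96, 7.17 and 7.80 CPM with vehicle and 7.94, 7.90 and 7.72 with TNF-α. Granulocytes held 7.35, 6.85 and 7.04 CPM with vehicle and 9.72, 10.4 and 9.68 with TNF-α. The promyelocyte groups overlapped, and the granulocyte groups did not. *FLT3* rose in granulocytes by a log2 fold change of 0.48 (SE 0.107, edgeR adjusted p = 0.000288). In promyelocytes the value was 0.13 (95% interval -0.12 to 0.37, edgeR adjusted p = 0.534), and the difference of the responses was 0.39 (standard error 0.144, edgeR adjusted p = 0.0516). That difference passed the threshold when promyelocyte vehicle replicate 1 was left out (0.42, edgeR adjusted p = 0.0454).

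*CSF1R* (ENSG00000182578.13, chromosome 5, from 150053291 to 150113372, minus strand), the receptor that defines the monocyte and macrophage lineage, fell with TNF-α in granulocytes. Vehicle-treated granulocytes held 51.1, 48.9 and 49.2 CPM and TNF-α treated ones 33.6, 33.3 and 29.7, which gave a log2 fold change of -0.64 (SE 0.061, edgeR adjusted p = 3.02e-11). Promyelocytes held 3.95, 3.68 and 4.35 CPM with vehicle and 3.65, 2.86 and 2.49 with TNF-α. The promyelocyte groups did not overlap but lay close, with a log2 fold change of -0.40 (95% interval -0.77 to -0.02, edgeR adjusted p = 0.155). Among all genes tested in promyelocytes 30.9% had groups that did not overlap, and in granulocytes 55.1%. With all 12 libraries in 1 fit the promyelocyte value was -0.43 and passed the threshold (edgeR adjusted p = 0.0262). The difference of the responses was -0.20 (95% interval -0.52 to 0.12, edgeR adjusted p = 0.389). Of the monocyte markers, *CD14* averaged 0.186 CPM with vehicle and 0.309 with TNF-α in granulocytes (5 to 6 and 5 to 12 counts), and *C1QA* 0.0609 and 0.153 (0 to 3 and 3 to 4 counts), both higher on average where *CSF1R* was lower. The part of such cells in the results for *CSF1R* and *CSF1* was not tested.

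*CSF1* (ENSG00000184371.13, chromosome 1, from 109910242 to 109930992, plus strand), which encodes macrophage colony-stimulating factor, had the largest increase of the 10 genes in both cell types. Promyelocytes held 0.752, 0.883 and 0.691 CPM with vehicle and 4.18, 6.22 and 5.96 with TNF-α. Granulocytes held 1.89, 1.95 and 1.54 CPM with vehicle and 17.1, 14.7 and 15.3 with TNF-α. Each TNF-α treated library was several times above each vehicle library, and the vehicle libraries rested on 20 to 59 counts. In promyelocytes the log2 fold change was 2.84 (standard error 0.22, 7.15-fold, edgeR adjusted p = 7.17e-09) and 3.11 in granulocytes (standard error 0.131, 8.65-fold, edgeR adjusted p = 1.32e-21). The 2 responses differed by 0.31 with a 95% interval from -0.26 to 0.88 (edgeR adjusted p = 0.463). Within libraries, the length-scaled ratio of *CSF1R* to *CSF1* was 4.38 to 6.63 in vehicle-treated promyelocytes and 0.440 to 0.919 with TNF-α. It was 26.3 to 33.5 in vehicle-treated granulocytes and 2.04 to 2.38 with TNF-α, so the receptor transcript stayed above the ligand transcript in granulocytes but not in promyelocytes.

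**Figure D3:**
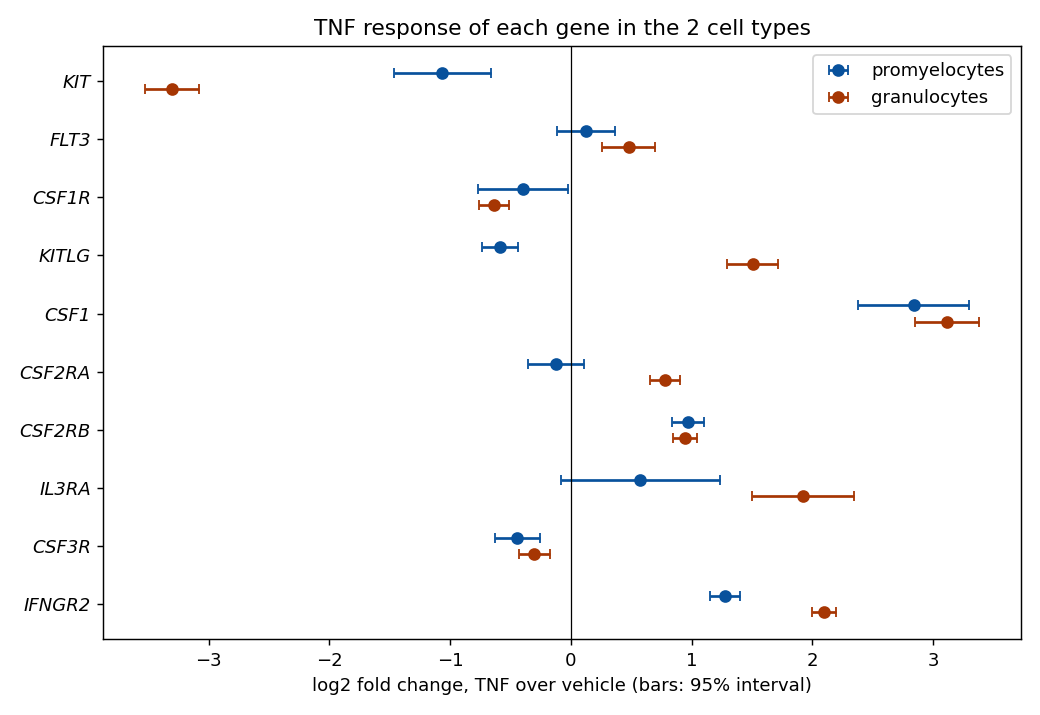
Log2 fold change of TNF over vehicle for each of the 10 genes in promyelocytes (blue) and granulocytes (brown), with 95% intervals from the edgeR fits of each cell type. *KITLG* lies on opposite sides of 0 in the 2 cell types, the intervals of *CSF2RB* overlap almost fully, and *KIT* has the lowest value in both. *KIT* and *KITLG* were chosen by these responses, so their intervals are a description and not a test.

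The shared signalling chain *CSF2RB* (ENSG00000100368.13, chromosome 22, from 36913628 to 36940449, plus strand) rose by nearly the same factor in both cell types. Promyelocytes held 35.9, 37.7 and 38.4 CPM with vehicle and 72.7, 69.2 and 74.2 with TNF-α, which gave a log2 fold change of 0.97 (SE 0.0631, edgeR adjusted p = 4.42e-10). Granulocytes held 159.1, 167 and 166 CPM with vehicle and 336, 306 and 318 with TNF-α, which gave a log2 fold change of 0.95 (SE 0.0494, edgeR adjusted p = 1.12e-18). No TNF-α treated library came near a vehicle library of its own cell type. The difference of the responses was 0.01 on the log2 scale, with a 95% interval from -0.15 to 0.17 (edgeR adjusted p = 0.936), and its sign changed with the scaling.

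The private chain of the GM-CSF receptor, *CSF2RA* (ENSG00000198223.16, chromosome X, from 1268800 to 1310381, plus strand), rose in granulocytes, and in promyelocytes its change did not pass the test. Promyelocytes held 9.02, 8.72 and 8.39 CPM with vehicle and 7.34, 8.22 and 8.04 with TNF-α. Granulocytes held 30.03, 31.0 and 26.9 CPM with vehicle and 52.3, 50.4 and 49.5 with TNF-α. The groups lay far apart in granulocytes, and in promyelocytes they did not overlap but almost touched. The log2 fold change in granulocytes was 0.78 (standard error 0.0625, edgeR adjusted p = 3.19e-13), and in promyelocytes it was -0.12 (95% interval -0.35 to 0.11, edgeR adjusted p = 0.527). The responses differed by 0.94 (standard error 0.113, edgeR adjusted p = 4.57e-07). As a result of these unequal changes, the length-scaled ratio of *CSF2RB* to *CSF2RA* went from 3.05 to 3.51 in vehicle-treated promyelocytes up to 6.45 to 7.59 with TNF-α, without overlap. In granulocytes the ranges, 4.06 to 4.74 and 4.66 to 4.92, overlapped.

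*IL3RA* (ENSG00000185291.11, chromosome X, from 1336616 to 1382689, plus strand), the private chain of the IL-3 receptor and also known as CD123, was the least abundant of the 4 class I chains per length. It had 0.948, 0.589 and 1.10 CPM in vehicle-treated promyelocytes and 0.941, 1.32 and 1.61 with TNF-α. It had 1.23, 0.861 and 1.38 CPM in vehicle-treated granulocytes and 4.75, 4.48 and 4.07 with TNF-α. The promyelocyte groups overlapped, while the granulocyte groups were clearly apart. *IL3RA* rose in granulocytes by 1.93 on the log2 scale (standard error 0.208, 3.80-fold, edgeR adjusted p = 6.32e-10). In promyelocytes the value was 0.58 (95% interval -0.08 to 1.23, edgeR adjusted p = 0.256), from 16 to 51 counts per library. The responses differed by 1.39 (standard error 0.369, edgeR adjusted p = 0.00637). Both *CSF2RA* and *IL3RA* lie in the pseudoautosomal region that X and Y share, and their second copies, listed on Y, were at 0 in all libraries, as were the Y copies of all 45 genes listed in this way.

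*CSF3R* (ENSG00000119535.17, chromosome 1, from 36466043 to 36483278, minus strand), the receptor for G-CSF, was the 1 class I chain of the 4 that fell, and it did so in both cell types. Promyelocytes held 20.6, 22.1 and 22.3 CPM with vehicle and 14.9, 14.7 and 17.3 with TNF-α, which gave a log2 fold change of -0.45 (SE 0.0891, edgeR adjusted p = 0.00134). Granulocytes held 45.4, 45.2 and 49.1 CPM with vehicle and 41.0, 38.8 and 34.4 with TNF-α, which gave a log2 fold change of -0.31 (SE 0.0633, edgeR adjusted p = 0.00011). The groups did not overlap in either cell type, although the granulocyte groups were closer together. The difference of the responses was 0.18 (95% interval -0.05 to 0.40, edgeR adjusted p = 0.264).

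*IFNGR2* (ENSG00000159128.14, chromosome 21, from 33402896 to 33479348, plus strand) rose in both cell types and by more in granulocytes. Promyelocytes held 43.1, 41.9 and 41.6 CPM with vehicle and 100.2, 103.6 and 97.8 with TNF-α. Granulocytes held 75.4, 72.7 and 74.7 CPM with vehicle and 325, 323 and 311 with TNF-α. Replicates differed little beside the distance between groups. In promyelocytes the log2 fold change was 1.28 (standard error 0.0591, 2.42-fold, edgeR adjusted p = 2.30e-12) and 2.09 in granulocytes (standard error 0.0497, 4.27-fold, edgeR adjusted p = 1.53e-29). The responses differed by 0.86 (standard error 0.0717, edgeR adjusted p = 7.74e-10). *TMEM50B*, on the opposite strand, shares 380 exon bases with *IFNGR2* (12.84% of its exons), and the counting used strand.

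In the comparison of the 2 responses, 24% of 18124 genes were called, 14.1% with a higher log2 fold change in granulocytes and 9.88% with a lower one. With DESeq2's size factors in place of TMM the split of all calls went from 2561 higher and 1790 lower to 2128 higher and 2266 lower. Of the 8 genes other than *KIT* and *KITLG*, 3 (*CSF2RA*, *IL3RA* and *IFNGR2*) were called, all with the higher value in granulocytes, and 5 were not.

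Ranked by length-scaled level (CPM per kb), *IFNGR2* and *CSF2RB* were the 2 highest of the 10 in every group. In vehicle-treated promyelocytes *IFNGR2* stood at 14.3 ± 0.276 and *CSF2RB* at 7.46 ± 0.259 (SD, n = 3), followed by *KITLG* at 6.26 ± 0.445. *CSF3R*, *CSF2RA* and *FLT3* came next, between 1.76 and 2.57. *CSF1R* (0.775 ± 0.0656) and *KIT* (0.755 ± 0.129) did not differ beyond their spread, and *IL3RA* (0.515) and *CSF1* (0.143) were lowest. In TNF-α treated promyelocytes the levels of *CSF2RA* (2.05 ± 0.121), *FLT3* (1.89 ± 0.0278) and *CSF3R* (1.85 ± 0.176) lay within their spread of each other, and *KIT* was lowest at 0.357 ± 0.0554.

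In vehicle-treated granulocytes the length-scaled order was *CSF2RB* (32.8 ± 0.885), *IFNGR2* (25.1 ± 0.475), *CSF1R* (9.65 ± 0.230), *CSF2RA* (7.65 ± 0.567), *CSF3R* (5.53 ± 0.263) and *KIT* (4.61 ± 0.0614), with the other four at 1.70 or below. In TNF-α treated granulocytes *IFNGR2* reached 108 ± 2.55 and *CSF2RB* 64.0 ± 2.94. *CSF2RA* followed at 13.2 ± 0.366, *CSF1R* at 6.25 ± 0.419 and *CSF3R* at 4.52 ± 0.398. Below these came *CSF1* (2.90 ± 0.227), *KITLG* (2.74 ± 0.291), *IL3RA* (2.59 ± 0.199) and *FLT3* (2.39 ± 0.0959). In this run no neighbours differed by more than the sum of their SDs. *KIT*, sixth of the 10 with vehicle, was again the lowest, at 0.465 ± 0.0826.

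Several of these genes lie beside relatives. *IFNGR2* is the last in a cluster of 4 receptor genes on chromosome 21, after *IFNAR2*, *IL10RB* and *IFNAR1*, which encode chains of the receptors for type I interferons and the IL-10 family. *IFNAR1* had log2 fold changes of 0.19 in promyelocytes (edgeR adjusted p = 0.0271) and 0.18 in granulocytes (edgeR adjusted p = 0.00337). *IFNAR2* and *IL10RB* did not pass the test in promyelocytes (0.01 and 0.07) and fell in granulocytes (-0.24 and -0.21). The partner chain of *IFNGR2*, *IFNGR1*, did not pass the test in either cell type (-0.10 and 0.05). *PDGFRA*, next to *KIT* on chromosome 4, was at 0 in all 12 libraries, and *PDGFRB*, next to *CSF1R* on chromosome 5, had at most 32 counts. *CRLF2*, in the pseudoautosomal region with *CSF2RA* and *IL3RA*, had 11 to 27 counts and did not pass the test.

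The other genes of these pathways were taken from 6 lists by function. Of 9 further ligands, *CSF2*, *IL3* and *THPO* were at 0 in all 12 libraries, *CSF3* and *IFNG* had at most 1 count in a library, and *IL5*, *IL34* and *EPO* had at most 7. *FLT3LG*, the ligand of FLT3, was the only one tested, in granulocytes, with 23 to 26 counts per vehicle library and 8 to 27 with TNF-α (log2 fold change -0.12, edgeR adjusted p = 0.814). In promyelocytes it had 1 to 4 counts with vehicle and 6 to 21 with TNF-α, too few to be tested there, and in the fit of all libraries its responses differed by -2.16 (edgeR adjusted p = 0.0442). Thus RNA of KITLG and CSF1 was abundant enough to test in both cell types and RNA of the ligands of the GM-CSF, IL-3, G-CSF and interferon-gamma receptors was at or under the floor.

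Of 18 further receptors, 12 were tested in promyelocytes, where 5 rose and 2 fell (median log2 fold change 0.13, against -0.0094 over all genes tested), and 13 in granulocytes, where 5 rose and 5 fell (median 0.05, against -0.0047 over all genes tested). Over all genes 14.8% were called in promyelocytes and 49.2% in granulocytes. *IL10RA*, the ligand-binding chain of the IL-10 receptor, rose by 1.72 and 2.02. *IL4R* rose by 0.68 and 1.75, *IL2RG*, the chain shared by the IL-2 family of receptors, by 0.24 and 1.19, and *IL6ST*, the shared chain of the IL-6 family, by 0.89 and 0.85. Its partner *IL6R* fell, by 0.63 in promyelocytes and 1.33 in granulocytes on the log2 scale, and *EPOR*, the erythropoietin receptor, fell by 0.90 and 1.30. The IL-6 receptor pair thus divided into a shared chain that rose and a private chain that fell in both cell types.

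**Figure D4:**
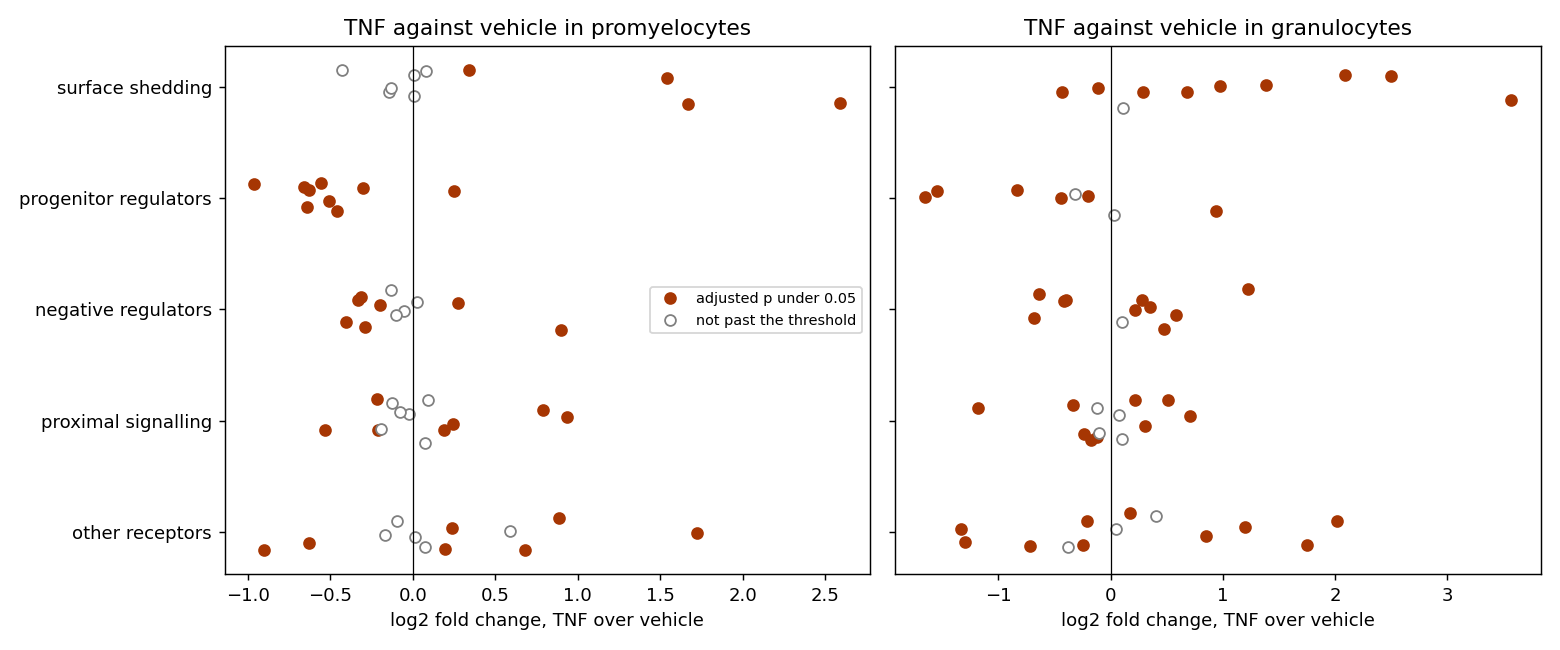
Log2 fold changes of TNF over vehicle for the tested genes of 5 pathway lists in promyelocytes (left) and granulocytes (right), with filled points at an adjusted p under 0.05. In the progenitor regulators 8 of 9 points in promyelocytes and 5 of 8 in granulocytes are filled and lie below 0.

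A list of 12 transcription factors of progenitor cells was examined next. Of these, 9 were tested in promyelocytes, where 8 fell and 1 rose (median -0.56), and 8 in granulocytes, where 5 fell, 1 rose and 2 did not pass the test (median -0.38). Over all genes tested, 6.65% fell in promyelocytes and 24.8% in granulocytes. *MYB*, a factor that keeps progenitors immature, fell from 465 ± 6.30 to 333 ± 2.86 CPM in promyelocytes and from 117 ± 3.20 to 37.6 ± 3.47 in granulocytes (SD, n = 3), by 0.46 and 1.65 on the log2 scale. *LMO2* fell by 0.30 and 1.54, *LYL1* by 0.66 and 0.84, *CEBPA* by 0.63 and 0.44, and *RUNX1* by 0.56 and 0.20. *SPI1*, which encodes PU.1, rose in both, by 0.25 in promyelocytes and 0.94 in granulocytes. *GATA2* fell by 0.64 in promyelocytes and averaged 0.772 CPM with vehicle and 0.622 with TNF-α in granulocytes, where its change did not pass the test (edgeR adjusted p = 0.501). *MYB* and *LMO2* had responses that differed between the cell types, by -1.16 and -1.20 (edgeR adjusted p = 1.84e-11 and 1.22e-09).

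Among 13 tested adaptors, kinases and lipid kinase subunits that act just below the receptors, 4 rose and 3 fell in promyelocytes (median -0.02), and 4 rose and 5 fell in granulocytes (median -0.10). The share of all genes called was 14.8% in promyelocytes and 49.2% in granulocytes. *GAB2*, an adaptor used by KIT and the GM-CSF receptor, fell by 0.53 and 1.18, and *TYK2*, a Janus kinase, rose by 0.79 and 0.71. *JAK2*, the Janus kinase bound to CSF2RB and IFNGR2, rose from 29.6 ± 1.76 to 55.8 ± 2.76 CPM in promyelocytes (log2 fold change 0.94, edgeR adjusted p = 4.15e-09), and in granulocytes it had 114 ± 8.20 and 121 ± 3.85 CPM (0.08, edgeR adjusted p = 0.251). The *JAK2* responses differed by -0.83 (edgeR adjusted p = 6.25e-08). *JAK2* falls outside the rule for naming genes and was chosen after its values were seen.

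Of 11 tested negative regulators, 2 rose and 5 fell in promyelocytes (median -0.13), and 6 rose and 4 fell in granulocytes (median 0.22), beside 14.8% and 49.2% of all genes called in either direction. *SH2B3* (LNK), an adaptor that restrains KIT and JAK2 signalling, rose from 73.9 ± 0.614 to 135 ± 8.93 CPM in promyelocytes and from 134 ± 3.73 to 316 ± 9.74 in granulocytes, by 0.90 and 1.23 on the log2 scale. *PTPN6*, the phosphatase SHP-1, fell by 0.20 and 0.68, and *CBLB*, a ubiquitin ligase, by 0.31 and 0.63. *RASA1*, which switches RAS off, rose by 0.28 and 0.58.

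Membrane proteases and their regulators, which include enzymes able to release KITLG, CSF1 and several receptors from the cell surface, had 10 of 12 genes tested. In promyelocytes 4 rose and 6 did not pass the test (median 0.04), and in granulocytes 7 rose and 2 fell (median 0.83). Of all genes tested, 8.15% rose in promyelocytes and 24.4% in granulocytes. *MMP9* rose by 2.59 and 3.57, *MMP14* by 1.54 and 2.49, and *ADAM8* by 1.67 and 2.09. *ADAM17*, the main sheddase of TNF-α and CSF1R, rose from 52.1 ± 0.325 to 64.9 ± 3.36 CPM in promyelocytes and from 92.9 ± 2.06 to 245 ± 8.44 in granulocytes, and its responses differed by 1.08 (edgeR adjusted p = 2.22e-11). RNA levels do not measure shedding or surface protein.

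The genes whose levels followed *KIT* most closely over the 12 libraries were *CYP1B1* (Pearson r = 0.989), *SMARCAL1* (0.986), *ATOSA* (0.984), *CD33* (0.984) and *ZNF672* (0.979), among 11793 genes compared on log2 CPM. *CYP1B1*, a cytochrome P450, averaged 459 and 328 CPM in promyelocytes with vehicle and TNF-α and 917 and 363 in granulocytes, and *CD33*, a myeloid surface lectin, 127, 111, 169 and 115 in the same order. Closest to *KITLG* were *CEP85* (0.988), *ISOC1* (0.987), *ARPC5L* (0.983), *TAF5L* (0.982) and *PIGU* (0.981). *ISOC1* averaged 12.7 and 10.5 CPM in promyelocytes and 3.84 and 7.39 in granulocytes. The 12 points form 4 groups that share cell type, treatment and experiment, so these correlations describe the order of the groups and carry no test.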

How the data were processed

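The authors removed ribosomal RNA, sequenced 150-base paired ends, aligned the reads with STAR 2.5.3a to hg38 and counted read pairs per gene with featureCounts 1.5.2. They deposited these raw counts without normalization. Per the file headers, counting used the reverse strand and primary alignments. Tools and versions are from the submitters' processing notes. Symbols were matched for 57577 of 58288 identifiers (711 had none).

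The members and the gene lists were chosen with earlier results of these data known. Libraries were grouped by their titles. The main test was run in edgeR 4.0.16 (R 4.3.3), separately for each cell type, with TMM, filterByExpr (minimum count 10, minimum total 15), the quasi-likelihood test with Benjamini-Hochberg adjustment, threshold 0.05 and prior count 0.125. The difference of the responses was the interaction in a fit of 12 libraries. Standard errors come from the log2 fold change and F. Total counts had a median of 28233190. Replicate libraries differed by 3.57 to 14.0 times the chi-square expected from counting alone, so none was a duplicate. Named pathway genes passed the threshold in both cell types with a log2 fold change of at least 0.5 in one, at most 6 per list, and ligands were given as levels. Correlations used log2 CPM with a prior count of 2 and genes averaging at least 1. On simulated counts, 94% of genes changed by 0.5 on the log2 scale were recovered in promyelocytes, 96% in granulocytes and 78% for the difference (100%, 100% and 99% for a change of 1), among 15970, 16636 and 17632 genes. The changed genes were drawn only from those averaging over 5 CPM in the fit. These shares therefore do not cover *IL3RA* in either cell type or for the difference, or *KIT*, *CSF1R* and *CSF1* in promyelocytes. False calls made up 11 of 205 calls in promyelocytes, 17 of 213 in granulocytes and 7 of 184 for the difference. With 100 genes changed at each size, the simulations held far fewer changes than the granulocyte data, where 49.2% of genes were called. Alternatives were DESeq2 1.42.0, its size factors, no filter, a replicate block, thinning to the smallest library, a threshold of 0.01, X and Y copies summed, 1 fit of 12 libraries, leaving out each library and, added after seeing the data, removal of GC content and length trends. Levels were also computed without TMM. The summed level of the monocyte or macrophage markers is not reported here, and 5 of them are given by their counts. Plots were drawn with matplotlib 3.10.9.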

Additional observations from a re-analysis of the deposited data

Results flagged for a closer look

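By the interaction test in edgeR, the response to TNF-α differed in 3 genes between the cell types, which were run as separate experiments. Each had a higher log2 fold change in granulocytes. The difference was 0.94 for *CSF2RA* (adjusted p = 4.57e-07), 1.39 for *IL3RA* (adjusted p = 0.00637) and 0.86 for *IFNGR2* (adjusted p = 7.74e-10). *CSF2RA* and *IL3RA* did not pass the test in promyelocytes and *IFNGR2* rose in both. For *KITLG* every TNF-α treated library was lower than vehicle in promyelocytes and higher in granulocytes, with a difference of 2.13, which was not tested because the gene was chosen for this pattern.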

How the results depend on the processing

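Of 30 log2 fold changes (10 genes in 3 comparisons), 27 kept their direction and their side of the threshold under all alternatives run. No call was lost. The values of *KIT* and *KITLG* are among the 30. These genes were chosen by their response, so for them this is a description and not support. *CSF1R* in promyelocytes gained a call with all 12 libraries in 1 fit (-0.43), and *FLT3* gained one for the difference of the responses with GC content and length trends removed (0.51, edgeR adjusted p = 0.00753) and without promyelocyte vehicle replicate 1 (0.42). The difference for *CSF2RB*, 0.01, changed sign with DESeq2's size factors (-0.0382), without a filter (-0.0708), in DESeq2 (-0.0469), on thinned counts (-0.0044), with GC and length trends removed (-0.11) and without promyelocyte vehicle replicate 3 (-0.0095), promyelocyte TNF-α replicate 2 (-0.02), granulocyte vehicle replicate 1 (-0.0256) or granulocyte TNF-α replicate 1 (-0.02), reached 0.043 at most with 1 library left out, and never passed the threshold. At a threshold of 0.01, 1438 genes in place of 2405 were called in promyelocytes and 2843 in place of 4351 for the difference, since the rule is stricter. Leaving out 1 library gave 1598 to 2475 calls in promyelocytes, with 1598 without promyelocyte vehicle replicate 2, and 7373 to 8010 calls in granulocytes. The replicate numbers are shared by the groups but not stated to pair flasks, and deviations of same-numbered libraries correlated between -0.146 and -0.0129. With a block for replicate number, 1833, 7721 and 3349 genes were called in promyelocytes, granulocytes and for the difference. No call of the genes other than *KIT* and *KITLG* changed under this block. Summing the X and Y copies could change nothing, since all Y copies were at 0. Without TMM, 10 of 40 group levels moved by more than 1 SD, all in granulocytes. Precision was set by 3 flasks per group and, for *CSF1*, *IL3RA* and *KIT*, by low counts.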
